A study of Mus musculus with 2 samples.

Results

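The integrin and laminin genes of the array were examined in mature hepatocytes (MHs) and in Sox9+EpCAM- cells. All spots other than controls were searched by gene name for the alpha and beta chains of integrins and the alpha, beta and gamma chains of laminins, which found 37 genes of 30153, 26 integrins and 11 laminins, read by 51 of 43020 spots. The rule itself reads gene names and no measured value, but it was set with earlier results of these data known. The study compared 1 array of MHs, separated by a Percoll gradient from normal livers, with 1 array of Sox9+EpCAM- hepatocytes, which FACS had taken as GFP+EpCAM- cells. Their livers were injured by a diet with DDC, a compound that damages the bile ducts, in Sox9-EGFP mice. According to the study's methods the healthy livers also came from Sox9-EGFP mice, in which GFP marks cells that express Sox9. The age of the mice, the length of feeding for this array and the number of mice behind each array are not given in the sources used here.

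Laminins are secreted trimers of 1 alpha, 1 beta and 1 gamma chain that form a sheet in the basement membrane. Integrins are receptors of 1 alpha and 1 beta chain that span the cell membrane and bind laminins, collagens, fibronectin and other ligands outside the cell, and the cytoskeleton inside it. In normal liver, hepatocytes face the sinusoid without a continuous basement membrane, whereas bile ducts rest on one.

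Each RNA was labelled with Cy3, and the processed intensity of a spot is its fluorescence in arbitrary units after background subtraction. With 1 array per group there is no SD between replicates and no test, and precision is limited by that number. The scanner software marked 27523 of 43020 spots as well above background, called a signal here, for MHs and 32158 for Sox9+EpCAM- cells. It marked none as saturated, and, for probes printed at least 8 times, the median SD between spots of 1 probe was 0.08 on the log2 scale on each array. The labels call both samples male, but Xist, the RNA that silences an X chromosome in females, read 1940 in MHs and 16.1, not well above background, in Sox9+EpCAM- cells, and MHs gave no signal for Ddx3y, Eif2s3y, Kdm5d and Uty on the Y chromosome. Diet, isolation and, going by these genes, sex differed together between the arrays and cannot be told apart. All 8 hepatocyte markers gave a signal in each group, with every log2 difference (Sox9+EpCAM- minus MH) below 0 and a median of -1.37. Albumin and Hnf4a, at -0.87 and -0.23, stayed within 4-fold. The 3 past 4-fold toward MHs, where 5.57% of all genes were, were Cyp3a11 (381-fold), Cyp2e1 (44.2-fold) and Tat (5.51-fold). None was past it the other way. Epcam was 13.3-fold higher on the array of cells sorted as EpCAM-. In RNA of many cells, fewer cells of a type and less RNA per cell cannot be told apart.

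The probes are 60 bases long, and the 51 member probes read 25 genes once, 10 genes by 2 probes and 2 genes by 3. The first 30 bases of the probes of the 6 genes that differed by at least 4-fold are given because they fix which stretch of each transcript was read. Coordinates are those of the array design, on mm9, and cover all 60 bases.
Lamb2, chr9:108392189-108392248, plus strand: gccctgaaactgaaacgggcaggaaatagc
Lamc1, chr1:155066156-155066215, minus strand: actgtggcccttttcaatgtgccttcactt
Lamb1, chr12:32014411-32014470, plus strand: ccgaggcagtcatctacaaataacccatca
Lama2, brighter probe, chr10:26701380-26701439, minus strand: cctgaccaccaacattaggttccgaggctg
Lama2, dimmer probe, chr10:26701254-26701313, minus strand: cccgactacctaataaagatagttcaatcc
Itga11, chr9:62631667-62631726, plus strand: gtttcatctgaacaatgtcatctgttcccc
Itga5, chr15:103175022-103175081, minus strand: gggttgatctggagcccagtctcggattct
No run of 20 bases in these 7 probes recurs in a probe for a different gene.

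For the differences, each intensity was divided by the 75th percentile of its array (741 for MH and 1110 for Sox9+EpCAM-), and the brightest probe stood for a gene. Where the MH value was not well above background, "at least" marks a bound: the MH value was then set to 27.8, the floor of signals so marked on that array, or to the probe's own reading if that was higher. A difference of 4-fold was the rule of size. Both arrays gave a signal well above background for 25 of the 37 genes. For 10 genes this held in Sox9+EpCAM- cells alone, for none in MHs alone, and 2 genes lacked it on each array. Over all 30153 genes, 3613 gave a signal in Sox9+EpCAM- cells alone, 572 in MHs alone and 6736 in neither, so the whole array leaned the same way. Of the 35 with a signal, 5 exceeded MHs by 4-fold or more in Sox9+EpCAM- cells, where 5.59% of 23417 genes with a signal were, and 1 was at least 4-fold lower, where 5.57% were. The median log2 difference of the 25 members was -0.23, and that of all 19232 genes measured on both arrays was -0.19. By family, with no test between them, 4 of 10 laminins with a signal were at least 4-fold higher (2 with normexp background correction) and none lower, with a median of 1.59 over the 6 measured on both arrays, whereas 1 of 25 integrins was higher and 1 lower, with a median of -0.24 over 19. With normexp, 612 of 23416 genes with a signal were at least 4-fold higher, against 1309 of 23417 as reported. Under the 5 other scalings the median of the laminins lay between 0.98 and 1.85 and that of the integrins between -0.42 and 0.02.

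**Figure D1:**
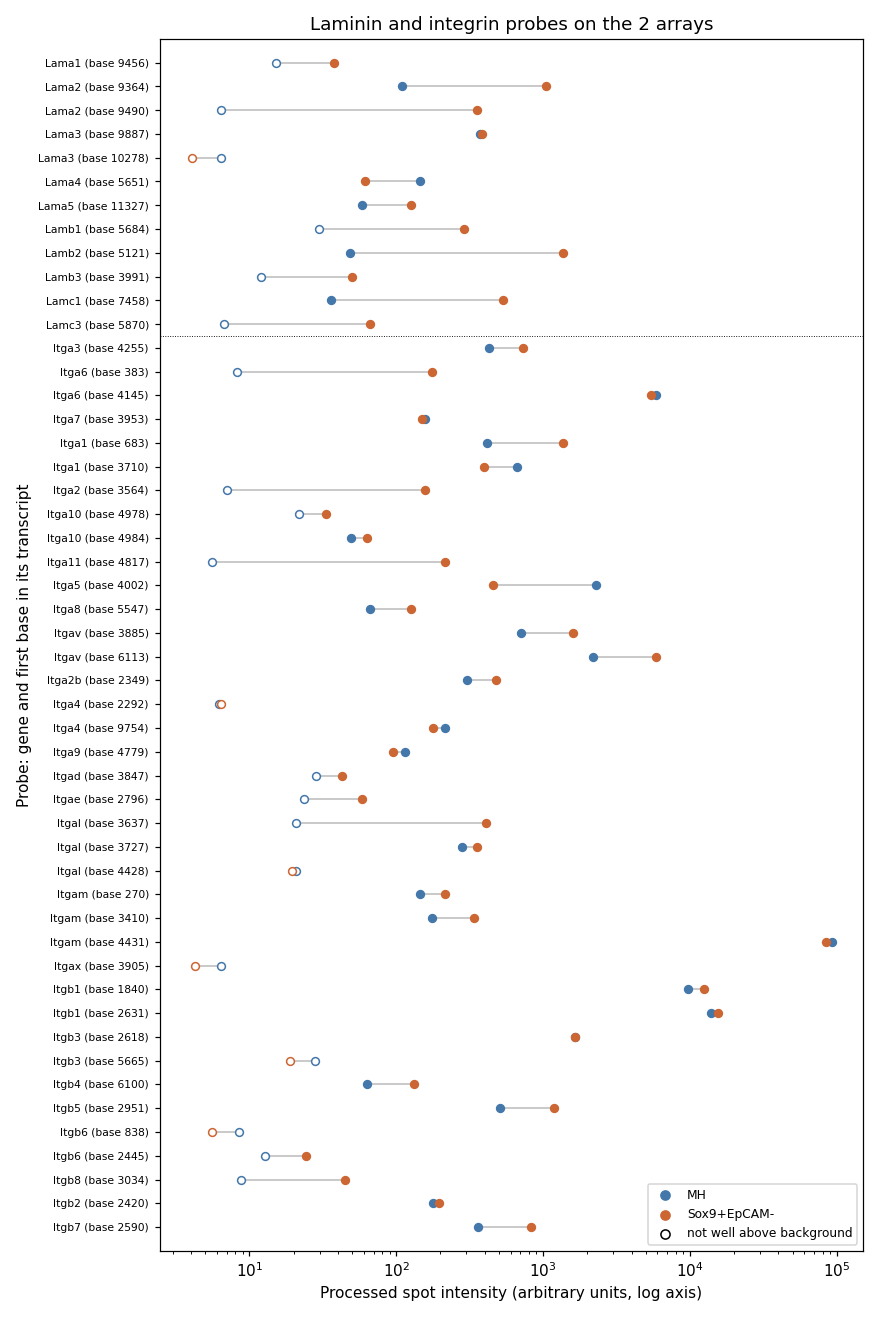
Processed intensity (arbitrary units, log axis) of 50 member probes on the MH array (blue) and the Sox9+EpCAM- array (orange), 1 spot each, with laminins above the dotted line and integrins below it. Filled points were well above background and open points were not. The probe of Lamb2 goes from 48.3 to 1370 and that of Itga5 from 2280 to 454, while the brightest probe of Itgam reads 92100 and 84700.

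Among the laminin alpha chains, Lama2, the chain of laminins in muscle and nerve sheaths that is also made by mesenchymal cells, had intensities of 110 in MHs and 1040 in Sox9+EpCAM- cells. This was a log2 difference of 2.66, or 6.31-fold. Its other probe read 6.40, not well above background, and 355, at least 8.52-fold higher, so both Lama2 probes lay past 4-fold in the same direction. Lama4, a chain of the laminins under blood vessel endothelium, went the other way, from 146 to 61.0, a log2 difference of -1.84 that is 3.59-fold and short of the rule. Lama5, the alpha chain of most adult epithelial basement membranes, read 58.8 and 126, a log2 difference of 0.52. Lama3, an alpha chain of laminins under skin and other surface epithelia, read 371 and 383, a log2 difference of -0.54, and its second probe was not well above background on either array. Lama1, the alpha chain of the early embryo, read 15.1 and 37.6, and only the second value was well above background. These 2 intensities leave no fold once the MH floor is applied.

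Of the members measured on both arrays, a beta chain had the largest difference and a gamma chain the next in size. Members with only a bound cannot be placed in that order. Lamb2, the beta chain of synapses, kidney filters and vessels, read 48.3 in MHs, with a scanner error of 9.34, and 1370 in Sox9+EpCAM- cells, with an error of 137. It was 18.9-fold higher, a log2 difference of 4.24. Lamb1, the more widely used beta chain, read 29.6, not well above background, and 291, at least 6.56-fold higher. Lamc1, the gamma chain shared by most laminins, read 35.8 with an error of 7.14 and 531 with an error of 53.3, 9.90-fold higher. The MH values of Lamb2 and Lamc1 were thus close to the floor of 27.8, and their folds hang on dim signals. Correction of the background by the normexp method, whose offset of 50 compresses dim signals, lowered the log2 difference of Lamb2 to 2.89, that of Lamc1 to 1.91 and the bound of Lamb1 to 1.29. Lamc1 then lay below Itga5 (-2.73) and Lama2 (2.18) in size, so its second place does not hold there.

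Lamb3, which pairs with Lama3 in the laminin of surface epithelia, read 11.9, not well above background, and 49.8, at least 1.20-fold higher. Lamc3, a gamma chain of retina and skin, read 6.74, not well above background, and 65.7, at least 1.58-fold higher. The chains past 4-fold were 1 alpha chain, 2 beta chains and 1 gamma chain. With normexp only Lama2 and Lamb2 remained past it, and no gamma chain did.

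**Figure D2:**
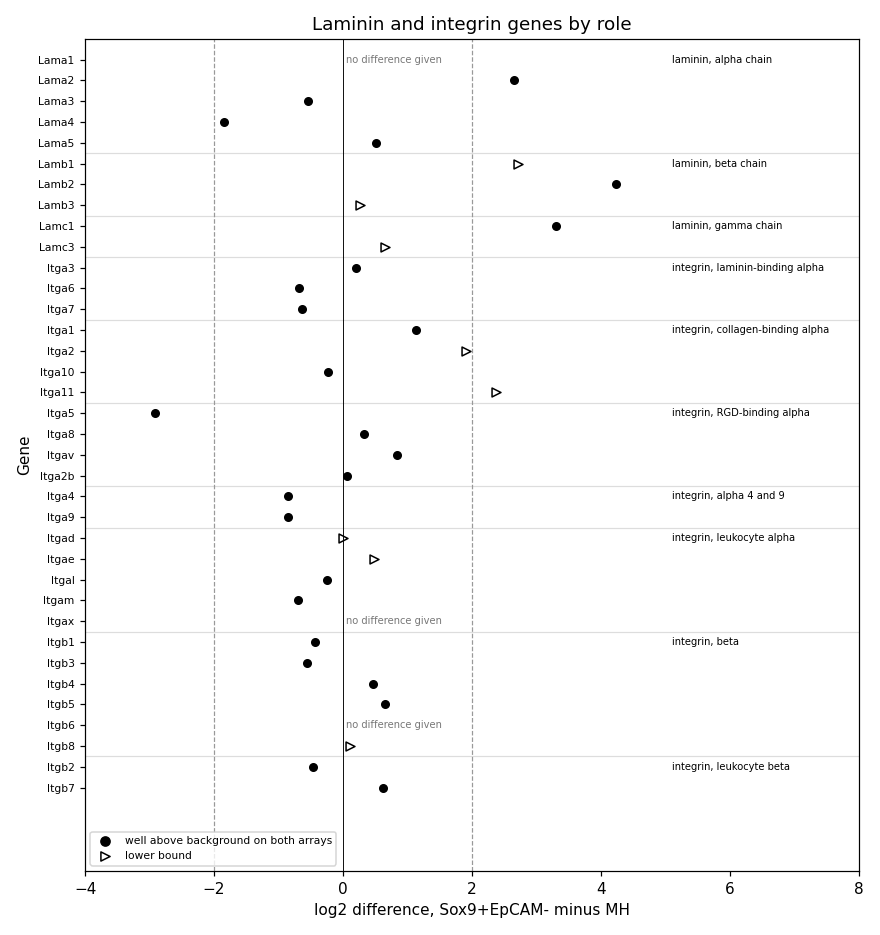
log2 difference (Sox9+EpCAM- minus MH) of 36 member genes, grouped by role, with dashed lines at 4-fold. Points were measured on both arrays, triangles are lower bounds, and 3 genes have no difference. Lamb2 (4.24), Lamc1 (3.31) and Lama2 (2.66) lie right of the line with the bounds of Lamb1 and Itga11, and Itga5 (-2.91) lies left of it.

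RefSeq promoters were at hand for 23 of the 37 members, and those of Lama2, Lamb1 and Lamb2 are shown because these chains were higher together. Each run is the 250 bases before the gene start on GRCm38.p6, with capitals for any match on either strand to GGGCGG (the GC box), TGANTCA (the AP-1 site), GGAATG (the TEAD site) or TATAAA (the TATA box).
Lama2, chr10:27616943-27617192, minus strand: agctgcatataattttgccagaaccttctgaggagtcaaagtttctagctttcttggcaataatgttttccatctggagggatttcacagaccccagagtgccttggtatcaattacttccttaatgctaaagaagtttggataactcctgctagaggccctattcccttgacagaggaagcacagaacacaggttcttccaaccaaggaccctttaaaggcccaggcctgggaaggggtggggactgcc
Lamb1, chr12:31265043-31265292, plus strand: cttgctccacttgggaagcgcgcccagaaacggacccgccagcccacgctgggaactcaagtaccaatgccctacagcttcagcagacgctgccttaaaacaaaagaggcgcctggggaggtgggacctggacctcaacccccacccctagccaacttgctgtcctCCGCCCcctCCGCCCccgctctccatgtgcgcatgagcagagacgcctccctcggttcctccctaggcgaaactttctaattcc
Lamb2, chr9:108479612-108479861, plus strand: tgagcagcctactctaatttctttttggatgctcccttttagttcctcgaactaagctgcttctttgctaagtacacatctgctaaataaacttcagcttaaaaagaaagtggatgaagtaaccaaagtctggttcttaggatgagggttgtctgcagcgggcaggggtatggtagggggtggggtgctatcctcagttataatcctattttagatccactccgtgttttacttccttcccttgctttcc
Lamb1 held GGGCGG 2 times, read here on the opposite strand as CCGCCC, and the promoters of Lama2 and Lamb2 held none of the 4 motifs. Over 32851 promoters of the table, 32.7% held GGGCGG, 6.75% TGANTCA, 12.6% GGAATG and 12.4% TATAAA, and of the 26 member promoters (some genes have 2) 34.6%, 3.85%, 11.5% and 0% did. These letters describe the windows and say nothing of binding.

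The integrins that bind laminins did not reach 4-fold in either direction by their brightest probes. Itga6, the alpha chain that pairs with Itgb1 or Itgb4, read 5850 and 5460, a log2 difference of -0.68. Its second probe, which reads an alternative transcript, read 8.18 in MHs, which was not well above background, and 176, a bound of 4.23-fold higher, and it is 1 of 2 member probes that share 20 bases with probes of another gene. Itga3, the alpha chain known for binding the laminins of epithelia, read 428 and 734, a log2 difference of 0.20. Itga7, the laminin receptor of muscle, read 156 and 150, a log2 difference of -0.64. Itgb4, the beta chain of hemidesmosomes, read 63.2 and 131, a log2 difference of 0.47. Itgb1, the beta chain with the most alpha partners, read 14000 and 15600 by its brighter probe and 9670 and 12500 by the other. Its log2 differences were -0.43 and -0.21, and the sign of the first turned, to 0.01, with quantile normalization.

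Of the 4 collagen receptors, 1 was past 4-fold, and only as a bound, beside 5.59% of all genes, and a count of 1 cannot be set apart from that share. Itga11, the collagen I receptor of fibroblasts, read 5.59, not well above background, and 216, at least 5.19-fold higher. With normexp its bound fell short of the rule, at 1.25 on the log2 scale. Itga2, a receptor of platelets and epithelia, read 7.04, not well above background, and 157, at least 3.77-fold higher, just short of the rule. Itga10, the receptor of cartilage, read 49.3 and 63.1, a log2 difference of -0.23. Its second probe read 21.9, not well above background, and 33.2, with no fold left.

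Itga1, the collagen IV receptor, which lies next to Itga2 in the genome, is measured by 2 probes that went in opposite directions. Both cross an exon junction, since they span 4139 and 1655 bases of the genome, and they are printed whole for that reason. The first lies at chr13:115821387-115825525 and the second at chr13:115756765-115758419, both on the minus strand.
Itga1, from base 683 of the transcript: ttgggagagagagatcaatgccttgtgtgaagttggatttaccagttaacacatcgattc
Itga1, from base 3710 of the transcript: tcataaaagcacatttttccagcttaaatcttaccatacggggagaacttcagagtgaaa
The probe from base 683 went from 418 to 1370, a log2 difference of 1.13, and that from base 3710 from 666 to 398, a log2 difference of -1.33. All 4 readings were well above background, and no other gene's probe shares 20 bases with them. The direction of Itga1 thus depends on the probe.

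Among the receptors for RGD, the peptide of fibronectin and vitronectin, Itga5 was the only member past 4-fold in the lower direction. Itga5, the fibronectin receptor, read 2280 in MHs, with a scanner error of 228, and 454 in Sox9+EpCAM- cells, with an error of 45.6. The value of Sox9+EpCAM- cells was 7.52-fold lower, at -2.91 on the log2 scale, with values between -3.09 and -2.64 over the scalings. Itgav, which binds vitronectin and latent TGF-beta, had the opposite sign in both of its probes. The brighter went from 2190 to 5870, a log2 difference of 0.84, and the other from 705 to 1610, a log2 difference of 0.61. Its partners gave 0.65 for Itgb5 (507 and 1190), -0.57 for Itgb3 (1640 and 1660) and at least 0.11 for Itgb8 (8.80, not well above background, and 45.0). Itgb6, the partner made by injured epithelia, read 12.7 and 24.2, of which only the second was well above background, and no fold remained. The other Itgb6 probe read 8.48 and 5.57, well above background on neither array. Itga8, a receptor of mesenchymal cells, read 66.7 and 125, a log2 difference of 0.32 that turned to -0.07 with normexp.

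The integrins of blood cells, and Itga9 as a relative of Itga4, stayed within 4-fold by their brightest probes. Itga2b, which pairs with Itgb3 on platelets, read 305 and 477, a log2 difference of 0.06. Itga4 and Itga9, related chains that bind VCAM-1 and osteopontin among others, both had a log2 difference of -0.85, from 216 to 179 and from 115 to 95.4. The second probe of Itga4 read 6.23 and 6.4, well above background on neither array. Itgb2, the beta chain shared by leukocyte integrins, read 179 and 195, a log2 difference of -0.46. Itgb7, the partner of Itga4 and Itgae on lymphocytes, read 362 and 831, a log2 difference of 0.62. Itgae, of lymphocytes in epithelia, read 23.6, not well above background, and 58.4, at least 1.40-fold higher. Itgad, of macrophages, read 28.3, not well above background, and 42.4, with no fold left beyond the bound. Itgax, of dendritic cells, gave no signal well above background for either group.

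Itgal, the alpha chain of LFA-1 on lymphocytes, and Itgam, that of Mac-1 on myeloid cells, gave different values by probe. The brightest probe of Itgal read 280 and 354, a log2 difference of -0.24, while the probe just before it in the genome read 20.9, not well above background, and 406, at least 9.75-fold higher, and the third gave no signal. Both stretches lie at chr7:134477064-134477219, and their first 30 bases show that they are different sequences.
Itgal, probe that differed: tggggaagagaccaaagatatgggctgtct
Itgal, brightest probe: acttgagagccctggctctgaccagcttca
The brightest probe of Itgam read 92100 and 84700, a log2 difference of -0.70. Its first 30 bases hold a repeat of CA, in capitals.
Itgam, brightest probe, chr7:135261755-135261814: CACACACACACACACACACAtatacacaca
In all, 24 probes of the array hold such a run of 20 bases, and all 24 gave a signal for both groups, with intensities from 35900 to 246000 on the MH array, where the median of all 39390 probes was 93.3. Their log2 differences lay between -1.25 and -0.40. The other probes of Itgam read 145 and 215, a log2 difference of -0.01, and 175 and 339, a log2 difference of 0.37. Without probes that share 20 bases with another gene, Itgam had the value of 0.37, so neither a direction nor a level of Itgam can be given.

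**Figure D3:**
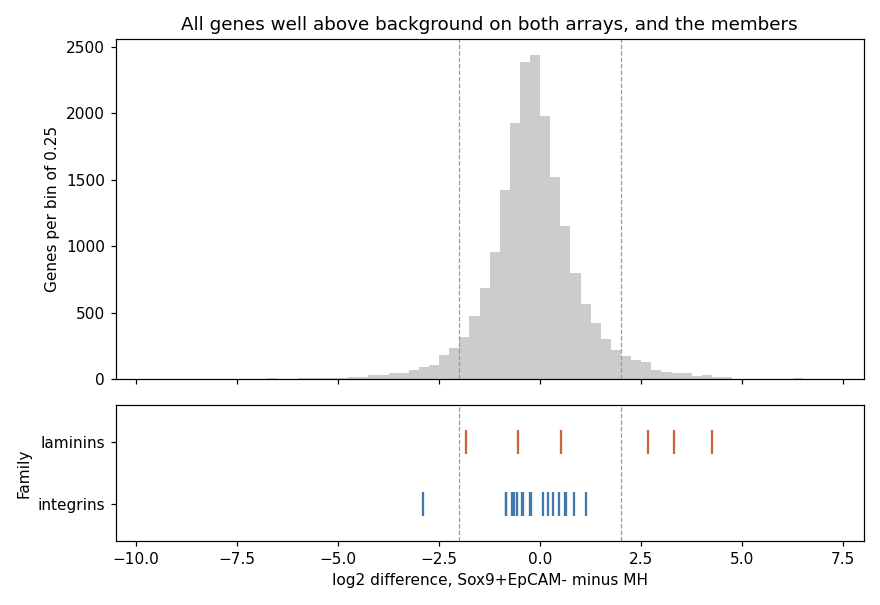
Number of genes per bin of 0.25 of the log2 difference (Sox9+EpCAM- minus MH) for the 19232 genes measured on both arrays, with the 6 laminins and 19 integrins so measured as ticks below. Dashed lines mark 4-fold. The integrins other than Itga5 lie between -0.85 and 1.13, in the bulk of all genes, and 3 of the 6 laminins lie past the right line.

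Of the 25 members measured on both arrays, 20 kept their sign under 5 other scalings, 10 higher and 10 lower, and 5 turned (Itga10, Itga2b, Itga8, Itgal and Itgb1). Of the 12 genes with several probes, 7 had 2 or more values, and in 3 of these (Itga1, Itga6 and Itgal) the values lay over 2 log2 units apart. The members past 4-fold under each scaling included Lama2, Lamb2 and Itga5.

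The other components of the basement membrane were read from a list of 15 genes. Of these, 4 were at least 4-fold higher and none lower, beside 5.59% and 5.57% of all genes, and the median over 12 measured on both arrays was 1.48, against -0.19 for all genes. Col4a2, a chain of the collagen network that laminins lie beside, went from 267 to 7740, 19.4-fold higher. Its partner Col4a1 read 9.14, not well above background, and 180, at least 4.33-fold higher. Nid1, which links laminin to collagen IV, was 8.52-fold higher (359 and 4580), whereas Nid2 read 2260 and 2400, a log2 difference of -0.50. Fbln1, a protein that binds laminin and nidogen, was 11.9-fold higher. Agrn, Ntn4 and Hspg2, which also bind laminins, lay just short of the rule, at 3.93-fold, 3.83-fold and 3.77-fold higher, and scaling to Gapdh made the count of genes past it 7. Col4a3, Col4a4, Col18a1, Col4a6 and Sparc had log2 differences of -0.45, -0.22, -0.01, 0.41 and 1.04. The median of 1.48 thus lies in a gap between Sparc and Hspg2 (1.91). Ntn1 read 33.5 and 13.2, the second not well above background. It was at least 2.73-fold lower, with the floor of 18.4 for the Sox9+EpCAM- array. Col4a5 left no fold.

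Receptors of laminin other than integrins had a median of 0.07 over 5 genes, against -0.19 for all genes, and the list's median turned to -0.11 in the authors' deposited table. Bcam, an adhesion molecule that binds Lama5, was the only one past the rule, from 51.8 to 366, 4.72-fold higher, and with normexp none was. Beside 5.59% of all genes, 1 of 5 cannot be set apart from that share. Dag1, the receptor of Lama2 in muscle, read 2150 and 4760, a log2 difference of 0.56. Sdc1, a heparan sulfate carrier of hepatocytes, read 20000 and 11200, a log2 difference of -1.42.

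Of 22 other ligands of integrins, 21 had a signal, 7 were at least 4-fold higher and none lower, beside 5.59% and 5.57% of all genes. The median over 20 was 0.36, against -0.19 for all genes. The 7 were Spp1, Thbs1, Col1a1, Col1a2, Vcam1, Icam1 and Tgfb3. Vcam1, a ligand of the receptors with Itga4, went from 169 to 2290, 9.05-fold higher, and Icam1, the ligand of Itgal and Itgam with Itgb2, from 1730 to 13900, 5.36-fold higher. Col1a1, a ligand of Itga11, was 21.3-fold higher. Fibronectin, the ligand of Itga5, read 7880 and 13600, a log2 difference of 0.20, beside the 7.52-fold lower value of its receptor. Vitronectin, a plasma protein of hepatocytes, read 38600 and 34100, a log2 difference of -0.76.

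The adaptors that join integrins to actin held both directions: of 28 with a signal, 1 was at least 4-fold higher and 3 lower, with a median of 0.25 over 27, and 3 were higher with Gapdh scaling. The reported counts are near the shares of all genes, 5.59% higher and 5.57% lower, and so are no result about the adaptors as a group. Zyx, a protein of focal adhesions under tension, went from 483 to 4010, 5.54-fold higher, and vinculin (Vcl) from 2710 to 14500, 3.57-fold higher. Itgb1bp1, which binds the tail of Itgb1 and opposes its activation, went from 6930 to 890, 11.7-fold lower. Parvb, a partner of Ilk, was 7.20-fold lower, and Fermt3, the kindlin of blood cells, 4.19-fold lower. Itgb1bp1 and Parvb each have 2 probes, of which the brightest stood for the gene. With the median of all probes, 2 adaptors were at least 4-fold lower in place of 3. Fermt2, the kindlin of most other cells, read 6130 and 11000, a log2 difference of 0.26, and talin (Tln1) and Ilk gave -0.22 and 0.00. Tetraspanins that associate with integrins had a median of 0.03 over 5 of 6 genes, which turned to -0.14 in the deposited table, and none was past the rule. Cd9 had the highest value of these, 2.81-fold.

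**Figure D4:**
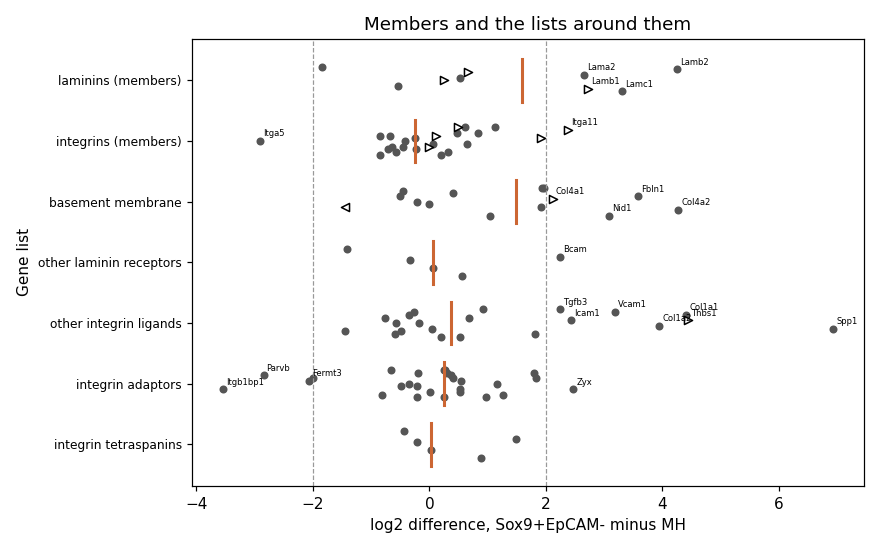
log2 difference (Sox9+EpCAM- minus MH) of each gene in the laminins, the integrins and 5 lists of related genes. Points were measured on both arrays, triangles are bounds, orange bars are medians of the points, dashed lines mark 4-fold, and names are given past them. The medians of the laminins (1.59) and of the basement membrane list (1.48) lie apart from the other lists, which lie between -0.24 and 0.36.

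Markers of other cell types were read in the same way, and their counts past 4-fold stand beside 5.59% higher and 5.57% lower of all genes with a signal. Of 11 fibroblast and stellate cell markers, 10 had a signal, 4 lay past 4-fold toward Sox9+EpCAM- cells and 1 toward MHs, and the summed level, in units of each array's 75th percentile, was 12.3 in MHs and 45.2 in Sox9+EpCAM- cells. Eln, Mgp and Lum gave a signal in Sox9+EpCAM- cells only, Lrat in MHs only, and Pdgfrb in neither. Col3a1 was 85.1-fold higher, Eln at least 134-fold, Mgp at least 129-fold and Lum at least 6.82-fold. Des, Dcn, Acta2, Reln and Thy1 stayed within 4-fold, and Dcn, which read 8080 and 15000, was the brightest of the 11 in MHs. The 4 higher markers had the direction of Lama2, Lamb1, Lamb2, Lamc1, Itga11, Col1a1, Col1a2, Col4a1 and Col4a2, and their part in those results was not tested. Of 9 endothelial markers, 8 had a signal, none was at least 4-fold higher and 4 were lower, with summed levels of 8.72 and 2.61. Cdh5 gave a signal in MHs only and Lyve1 in neither. Lama4 and Itga5 also had negative log2 differences, as did 11 of 12 leukocyte markers with a signal and all 8 hepatocyte markers. With 1 array per group the lists cannot be told apart here, and their part was not tested. Of 15 leukocyte markers on the array, 12 had a signal, 1 was higher and 6 lower, with summed levels of 43.1 and 16.0, and S100a8 and S100a9 were well above background on neither array. The leukocyte integrins (Itgad, Itgae, Itgal, Itgam, Itgax, Itgb2 and Itgb7) had summed levels of 125 and 77.6, which the repeat probe of Itgam makes up for the most part. All 6 cholangiocyte markers had a signal, and 1, Epcam, was at least 4-fold higher, a count too small to set apart from the share of all genes. None was lower, the summed levels were 1.92 and 6.52, and Sox9 itself gave a signal in Sox9+EpCAM- cells only. Of 7 platelet markers, 4 had a signal and none was past 4-fold, and they summed to 0.62 and 0.83, with Ppbp, Gp9 and Gp5 on neither array. The part of these lists in the integrin and laminin values was not tested.

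**Figure D5:**
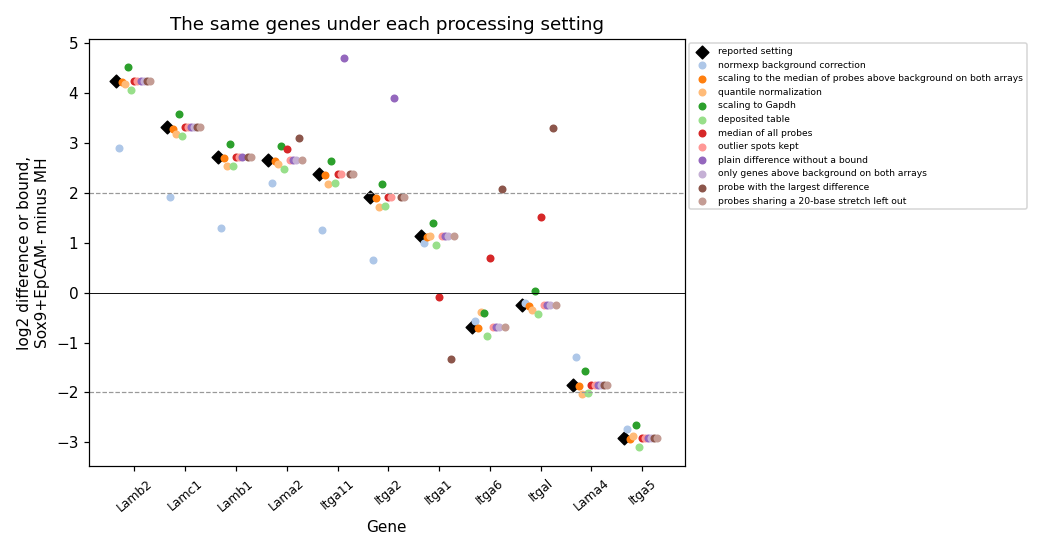
log2 difference, or its bound, of 11 members (Sox9+EpCAM- minus MH) under the reported setting (diamonds) and 11 other settings (circles), with dashed lines at 4-fold. Lamb2 stays between 2.89 and 4.51 and Itga5 between -3.09 and -2.64, while Itga1, Itga6 and Itgal change sign with the choice of probe.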

How the data were processed

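The authors deposited, for each of the 2 arrays, spot intensities from Feature Extraction 10.7.3.1, background-subtracted and not normalized between arrays. They also deposited a table of ratio values, in which each intensity is divided by the median of its array (SD of the log2 factor 0.0018). No sample column was left unused. Control spots and outlier spots were dropped (0 member spots were outliers), intensities were divided by the 75th percentile and taken to log2, and spots of a probe were averaged. A gene was its probe with the highest mean. All deposited intensities enter as log2 values. With 1 array per group no test was possible, so counts past 4-fold stand in for it, and the depth of an array is its signal over background. Members, lists and the sequences shown were chosen with earlier results of these data known. Every member may be named, and list genes, those past 4-fold first. All 37 names are current RefSeq symbols. Sequences are from the array design and RefSeq (GRCm38.p6). Python 3.11.15, pandas 2.3.3, numpy 2.4.6 and limma 3.58.1 in R 4.3.3 were used, and the procedure was tested on simulated data. The alternatives are given in the closing section. The probe with the largest difference, dropping probes that share 20 bases with another gene, and the list medians and counts under the alternatives were added after seeing the data. Items withheld from this text are not reported here.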

Additional observations from a re-analysis of the deposited data

How the results depend on the processing

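No member past 4-fold changed sign under any setting run. The count of members at least 4-fold higher, 5 as reported, was 2 with normexp (Lama2 and Lamb2), 3 with genes above background on both arrays only (Lama2, Lamb2 and Lamc1), and 1 at 10-fold (Lamb2). Over all genes, 1309 of 23417 were higher as reported, and 612 of 23416 with normexp. With genes above background on both arrays only, 758 of 19232 were, and at 10-fold 363 of 23417. The member count was 6 with Gapdh scaling, which adds Itga2, and 7 without bounds, at 2-fold, or with the probe of the largest difference. All genes then held 1650 higher with Gapdh scaling, 1949 without bounds and 3319 at 2-fold, each of 23417. With the probe of the largest difference, 1719 of 23334 were higher. The count of members at least 4-fold lower, 1 as reported, was 2 with quantile normalization, in the deposited table and at 2-fold, where Lama4 joins Itga5, and 0 at 10-fold. Over all genes, the lower counts were 1406 of 23410 with quantile normalization and 1563 of 23417 in the deposited table. They were 3918 at 2-fold and 344 at 10-fold. The median of the members, -0.23, lay between -0.40 and 0.06 and crossed 0 with Gapdh scaling, the median of all probes, and without probes that share bases. The medians of the 5 lists moved by less than 1.5-fold. Their counts past 4-fold, recomputed after seeing the data, moved by more than 1.5 times as follows, with smaller moves not listed. Higher adaptors, 1 as reported, were 2 with quantile normalization, the median of all probes or the probe of the largest difference, 3 with Gapdh, 5 at 2-fold and 0 at 10-fold, and lower adaptors, 3 as reported, were 1 at 10-fold. Higher basement membrane genes, 4 as reported, were 7 with Gapdh, 8 at 2-fold and 2 at 10-fold. Higher laminin receptors, 1 as reported, were 0 with normexp and at 10-fold, and higher ligands, 7 as reported, were 4 at 10-fold. At 2-fold, 1 tetraspanin was higher, and 1 basement membrane gene, 1 laminin receptor and 1 ligand were lower, against 0 of each as reported. Beside these list counts, all genes held 3319 higher and 3918 lower of 23417 at 2-fold, and 363 and 344 at 10-fold. With quantile normalization 1230 of 23410 were higher, and with the median of all probes 1286 of 23424. Normexp moved 5 members (Itga11, Itga2, Lamb1, Lamb2 and Lamc1), and its offset compresses dim signals by construction. Leaving out the bound, which by construction uses MH readings not well above background, moved 5 members: Itga11 from 2.37 to 4.69, Itga2 from 1.91 to 3.90, Itgb8 from 0.11 to 1.77, Lamb3 from 0.26 to 1.48 and Lamc3 from 0.66 to 2.70. The choice of probe moved Itga1, Itga6, Itgal and Itgam. Quantile normalization moved Itgam to -0.09, and the cause was not tested. Gapdh scaling moved the median of all genes by 0.27 and the deposited table by -0.18, and the split of all genes past 4-fold was 1650 higher and 1006 lower with the first and 1130 and 1563 with the second, against 1309 and 1304 as reported. Signal over background limits 10 members, whose MH level is only a bound. Fits with the slide as a block, or with a replicate left out, could not be made with these data. No paired analysis was possible because there was 1 array a group.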

Other observations

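Gapdh, which served as an alternative scale, has 8 probes on the array, and they fell on 2 sides. The 5 brightest had log2 differences (Sox9+EpCAM- minus MH) from -0.27 to -0.24, and the 3 dimmest from 0.73 to 0.80. Scaling to one of the dimmer probes was not run.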
